A study of Mus musculus with 10 samples.

Results

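The genes described here are 10 components of the Notch signalling pathway chosen by symbol, of 53379 genes counted in the series. They are the receptors Notch1, Notch2 and Notch3, the ligands Dll1, Dll3 and Jag1, the sugar transferase Lfng, and the transcriptional effectors Hes1, Hes5 and Hey1. All 10 were found by symbol, and 9 of them reached the mean of 10 reads per library that was required for testing, as 11551 genes did. Notch3, with a mean of 9 reads, did not.

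Notch signalling passes between touching cells. A ligand on the surface of a cell pulls on a receptor on its neighbour, proteases cut the receptor, and its intracellular part enters the nucleus, joins the DNA-binding protein RBPJ and switches on Hes and Hey genes. In the embryonic cortex, Hes1 and Hes5 repress proneural genes in radial glial progenitors, which keeps these cells dividing, while their differentiating daughters display the Delta ligands.

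RNA was sequenced from the Emx1+ lineage of the cortex at embryonic day 16 (E16) in 3 cKO-Cdkn1c-MADM-7 embryos (Cdkn1c-flox on both the GT and the TG chromosome of MADM-7, with Emx1-Cre/+) and 7 control MADM-7 embryos (MADM-7 GT/TG with Emx1-Cre/+). Cdkn1c encodes the cell cycle inhibitor p57KIP2, and the comparison addresses its loss in the tissue. Mosaic Analysis with Double Markers (MADM) labels cells by Cre-driven recombination between cassettes on both copies of a chromosome, here chromosome 7. Both groups carried the MADM-7 cassettes and Emx1-Cre, which is active in the dorsal forebrain lineage, on a mixed C57BL/6J and CD1 background. The floxed allele was therefore removed in that lineage and not in the whole embryo. Green, red and double-labelled MADM cells were sorted as 1 population of 400 cells from each embryo, so each library is 1 embryo and a mixture of colours and cell types. Per the paper, the colours differ in the parental origin of chromosome 7, and all sorted cKO cells carry the Cdkn1c deletion.

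Each library held between 1738220 and 3362487 reads on genes. Cdkn1c lay between 3.90 and 10.7 counts per 1000000 reads on genes (CPM, scaled by the TMM factors of edgeR) in the cKO libraries and between 67.0 and 130.4 CPM in the controls, a log2 fold change of -3.66 (SE 0.31), in the direction of the labels. Summed markers of radial glial progenitors, led by Fabp7, ran from 1819 to 3073 CPM in cKO and from 1850 to 3171 CPM in controls, and 0 of the 12 differed by edgeR's quasi-likelihood test at an adjusted p under 0.05. Those of projection neurons, led by Tubb3, ran from 8078 to 10408 CPM in cKO and from 10817 to 14043 CPM in controls, with 3 of 12 lower. Markers of both cell classes were thus present in every library. In bulk samples of this kind, fewer cells of a type and less RNA per cell cannot be told apart.

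None of the 9 genes tested differed between cKO and control by edgeR's quasi-likelihood test after Benjamini-Hochberg adjustment over all 11551 genes. The adjusted p ran from 0.0926 for Jag1 to 0.974 for Notch2. Over all genes tested, 364 passed, which is 3.15% of them. The other tools also called 0 of the 9, against 4.42% of genes for DESeq2 and 2.57% for limma-voom. At an unadjusted p under 0.05, 3 of the 9 passed (Jag1, Hes5 and Notch1), against 16.4% of all genes, and each of the 3 was higher in cKO, as were 9.25% of all genes. The fold change was above 0 for these 3 and below 0 for the other 6, with a median of -0.05 on the log2 scale beside 0.01 over all genes tested.

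The precision limits what this comparison could detect. The standard error of the log2 fold change ran from 0.19 for Hes5 to 0.44 for Lfng, with a median of 0.30 beside 0.27 for all genes tested. The 95% interval lay within a 2-fold change in either direction for 6 of the 9 genes, namely Notch2, Dll1, Dll3, Hes1, Hes5 and Hey1, and 62.9% of all genes tested had such an interval. The interval of Notch1, Jag1 and Lfng reached past it.

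**Figure D1:**
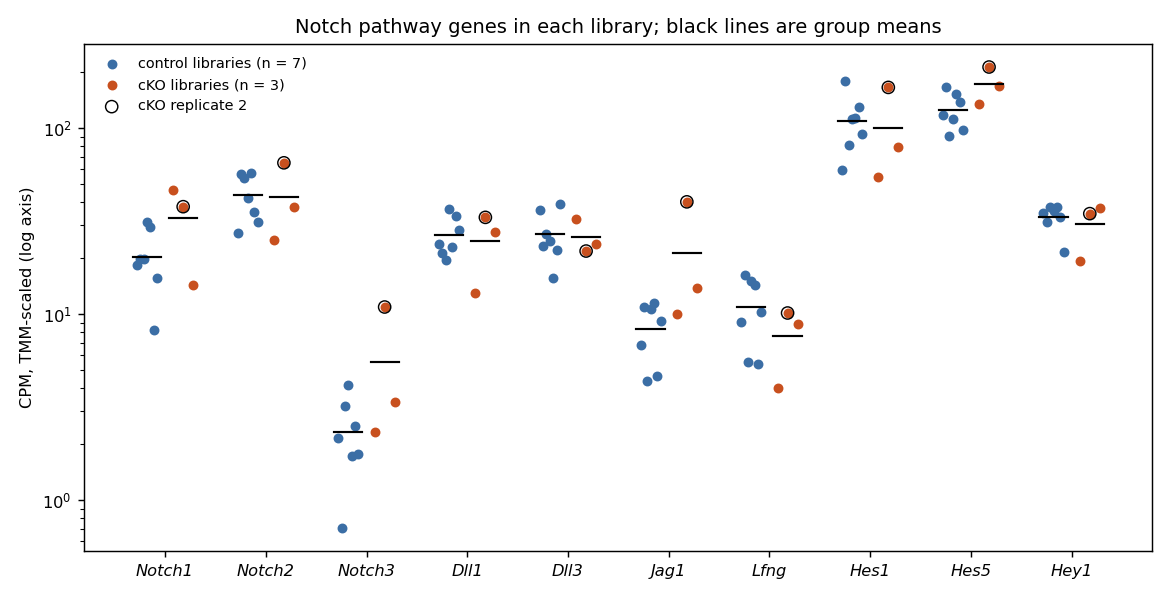
CPM (vertical axis, log scale) of each Notch pathway gene in the 7 control libraries (blue) and the 3 cKO libraries (orange), with black lines at the group means and a ring around cKO replicate 2. The groups overlap for all 10 genes, and cKO replicate 2 is the highest cKO library for 7 of them.

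For none of the 10 genes did all cKO libraries lie outside the range of the controls, whereas 6.01% of the genes tested had groups that did not overlap. Among the cKO samples, replicate 2 had the highest CPM of the 3 cKO libraries for 7 of the 10 genes, replicate 1 for 2 (Notch1 and Dll3) and replicate 3 for 1 (Hey1). Replicate 2 was also the cKO library with the highest summed radial glial markers, at 3073 CPM against 1819 and 2531 CPM, and had the highest cycling-cell markers of all 10 libraries, at 1659 CPM. The part of these in its Notch pathway values was not tested.

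The receptors came first in the signalling order. Notch1 (ENSMUSG00000026923.15, GRCm38 chr2:26457903-26516663, minus strand) is the main receptor of cortical progenitors. It measured 46.7, 37.8 and 14.3 CPM in cKO replicates 1, 2 and 3. In control replicates 1 to 7 it measured 18.4, 19.8, 19.8, 31.5, 29.4, 8.22 and 15.5 CPM. The 2 highest values of all were cKO libraries, but cKO replicate 3 was lower than 6 of the 7 controls. The log2 fold change was 0.74 (SE 0.35, 95% interval 0.01 to 1.48), with an adjusted p of 0.297 by edgeR's quasi-likelihood test. Leaving out cKO replicate 1 lowered it to 0.39, and leaving out cKO replicate 3 raised it to 1.08.

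Notch1 is also the receptor whose count depends most on how reads were assigned. Its exons share 1068 bases with the transcript 0610009E02Rik and 414 bases with Gm13568, both on the opposite strand, and the count used here leaves out reads that fall on more than 1 gene. The 10 libraries together held 662 Notch1 reads in this count and 1376 when the 2 strand-specific counts were added, a ratio of 2.08. With the added counts the log2 fold change was 0.47 and the adjusted p 0.595. The libraries carry no strand information, so the reads of Notch1 and of its antisense partners cannot be told apart in the shared bases.

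Notch2 (ENSMUSG00000027878.11, chr3:98013527-98150361, plus strand), the receptor with the highest level per length of the 3 here, measured 25, 65.1 and 37.8 CPM in cKO replicates 1, 2 and 3. The control values, replicates 1 to 7, were 27.4, 57.0, 53.7, 42.1, 57.1, 35.4 and 31.4 CPM. The cKO libraries included both the lowest and the highest value of the 10, with the controls between them. For Notch2 the log2 fold change was -0.03 (SE 0.29, 95% interval -0.65 to 0.59).

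Notch3 (ENSMUSG00000038146.7, chr17:32120820-32166852, minus strand), a receptor best known from vascular mural cells, had 90 reads in all 10 libraries together. It measured 2.33, 10.9 and 3.36 CPM in cKO replicates 1, 2 and 3, and between 0.708 and 4.18 CPM in the controls, with a median of 2.16. Replicate 2, with 28 reads, was the only cKO library above every control. When no gene was removed for low counts, the log2 fold change was 1.14 and the adjusted p 0.320 by edgeR's quasi-likelihood test. Markers of mural cells, led by Rgs5, summed to 6.63 to 11.3 CPM in cKO and 3.61 to 6.35 CPM in controls, with Abcc9, Anpep and Acta2 at 0 in every library, and 0 of the 8 had enough reads for a test. Their part in the Notch3 count was not tested.

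Among the ligands, Dll1 and Dll3 lay near 0. Dll1 (ENSMUSG00000014773.13, chr17:15367354-15376872, minus strand), an activating ligand displayed by newborn neurons and intermediate progenitors, measured 13.0, 33.1 and 27.7 CPM in cKO replicates 1, 2 and 3. Its control values were 23.8, 21.3, 19.5, 37.0, 23.1, 33.6 and 28.3 CPM in replicates 1 to 7. The lowest value was cKO replicate 1, and the other cKO libraries lay inside the control range. This gave a log2 fold change of -0.14 (SE 0.30, 95% interval -0.77 to 0.49). A further 867 exon bases of Dll1 are shared with the antisense A930024N18Rik, which held 23 reads, and adding the strand-specific counts moved the Dll1 total from 712 to 803 reads.

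Dll3 (ENSMUSG00000003436.11, chr7:28293553-28302238, minus strand), a divergent family member that does not activate receptors on neighbouring cells, measured 32.3, 21.8 and 23.96 CPM in cKO replicates 1, 2 and 3. The controls measured 36.4, 23.4, 27.1, 24.7, 15.6, 22.2 and 39.2 CPM in replicates 1 to 7. All cKO libraries lay within the control range. This gave a log2 fold change of -0.05 (SE 0.27, 95% interval -0.63 to 0.52).

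Jag1 (ENSMUSG00000027276.7, chr2:137081456-137116644, minus strand), a ligand of the Serrate type, had the smallest p of the 10 genes. It measured 10.00, 40.2 and 13.9 CPM in cKO replicates 1, 2 and 3. In control replicates 1 to 7 it measured 6.85, 10.98, 4.38, 10.6, 11.5, 4.65 and 9.19 CPM. Replicates 2 and 3 were above every control, and replicate 1 lay among them. The fitted level in cKO was 2.60 times that of the controls (log2 fold change 1.38, SE 0.42, 95% interval 0.48 to 2.28), with an adjusted p of 0.0926 by edgeR's quasi-likelihood test.

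A single library decided the size of the Jag1 difference. Without cKO replicate 2 the log2 fold change was 0.53 with an adjusted p of 0.544, and without cKO replicate 1 it was 1.75 with an adjusted p of 0.0263, both by edgeR's quasi-likelihood test. With no filter on low counts Jag1 passed the threshold (adjusted p 0.00425). Replicate 2 was also the highest library in summed endothelial markers, led by Egfl7, at 33.1 CPM, where the other cKO libraries had 5.46 and 6.67 CPM and the controls 2.86 to 12.1 CPM, with Erg at 0 in every library. Of those 10 markers 1 could be tested and 0 differed, and their part in the Jag1 value was not tested.

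**Figure D2:**
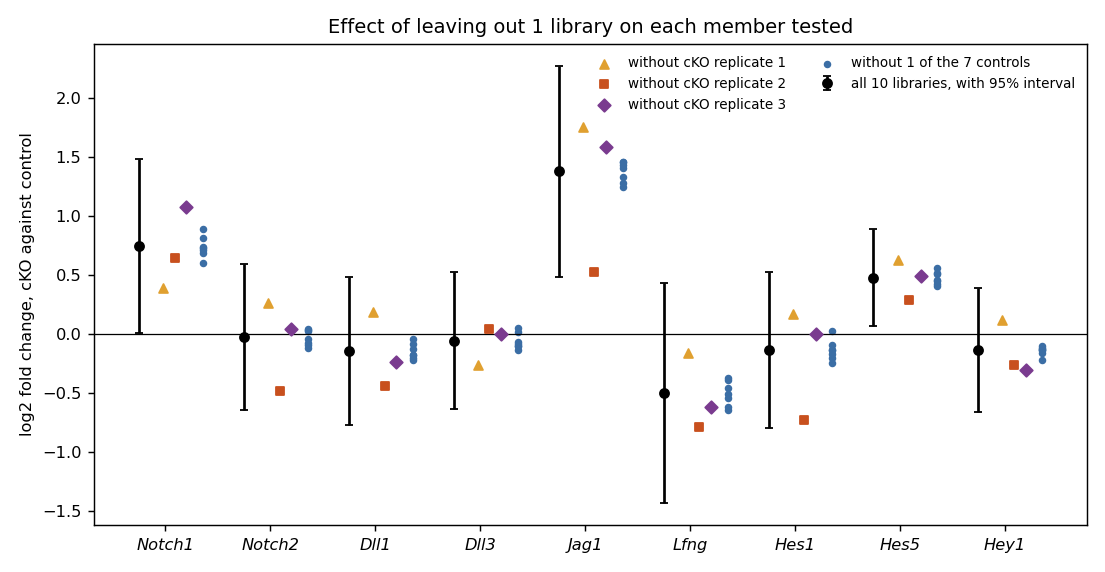
Log2 fold change (vertical axis) of the 9 Notch pathway genes tested, from all 10 libraries with its 95% interval (black) and after leaving out each cKO library or each of the 7 controls in turn. Jag1 ranges from 0.53 without cKO replicate 2 to 1.75 without cKO replicate 1, and Hes1 from -0.73 without cKO replicate 2 to 0.17 without cKO replicate 1.

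Lfng (Lunatic fringe, ENSMUSG00000029570.5, chr5:140607320-140615545, plus strand) adds sugars to Notch receptors and so changes which ligands they respond to. It measured 4.00, 10.1 and 8.83 CPM in cKO replicates 1, 2 and 3. The control values, replicates 1 to 7, were 9.01, 16.3, 5.54, 15.1, 14.4, 5.36 and 10.2 CPM. The lowest value of all was a cKO library, and the others fell within the control range. The log2 fold change was -0.50 (SE 0.44, 95% interval -1.43 to 0.43), the widest interval among the 9 genes, from 12 to 47 reads per library. The fold change of Lfng was -0.16 on the log2 scale without cKO replicate 1 and -0.79 without cKO replicate 2.

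The effectors were read next. Hes1 (ENSMUSG00000022528.7, chr16:30064384-30067796, plus strand), a repressor of proneural genes, measured 54.3, 165.7 and 79.4 CPM in cKO replicates 1, 2 and 3. In control replicates 1 to 7 it measured 59.5, 178.9, 81.4, 112.1, 113.1, 129.4 and 92.6 CPM. The controls alone spanned 59.5 to 178.9 CPM, and cKO replicates 2 and 3 lay inside that span. The log2 fold change was -0.14 (SE 0.32, 95% interval -0.80 to 0.53), and it was -0.73 without cKO replicate 2, with an adjusted p of 0.231 by edgeR's quasi-likelihood test.

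Hes5 (ENSMUSG00000048001.7, chr4:154960923-154962371, plus strand), a target that responds closely to Notch activity in neural progenitors, measured 135.7, 213.3 and 169.4 CPM in cKO replicates 1, 2 and 3. The control values, replicates 1 to 7, were 117.2, 166.8, 90.7, 111.8, 151.8, 137.6 and 97.5 CPM. Replicates 2 and 3 were above every control, and replicate 1 lay among the higher controls. The mean was 172.8 ± 38.9 CPM for cKO (SD, n = 3) and 124.8 ± 28.3 CPM for controls (SD, n = 7). The log2 fold change was 0.48 (SE 0.19, 95% interval 0.07 to 0.89), with an adjusted p of 0.216 by edgeR's quasi-likelihood test, and it was 0.29 without cKO replicate 2.

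As for Notch1, the Hes5 count leaves out many reads. Hes5 shares 433 exon bases with the transcript Gm20421 on the opposite strand. The libraries together held 3736 Hes5 reads in the count that ignores strand and 6518 in the added strand-specific counts, a ratio of 1.74. The reads of Gm20421 went from 8 to 2790 between these counts. The added counts give a read on the shared bases to both genes, so these are not separate reads of an antisense transcript. With the added counts the log2 fold change of Hes5 was 0.45, close to the value above.

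Hey1 (ENSMUSG00000040289.8, chr3:8663359-8667256, minus strand), a related repressor with a role in vascular and neural tissue, measured 19.3, 34.7 and 37.4 CPM in cKO replicates 1, 2 and 3. In control replicates 1 to 7 it measured 35.0, 31.2, 37.6, 35.99, 37.5, 33.2 and 21.6 CPM. Most libraries of both groups lay close together, with cKO replicate 1 and control replicate 7 below the rest. The log2 fold change was -0.14 (SE 0.25, 95% interval -0.66 to 0.39).

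The region before the start of Hes5 was compared with those of other members, because RBPJ binds the core TGGGAA and its targets may carry that motif. RefSeq windows (GRCm38.p6) of 250 bases before to 50 bases after an annotated start were at hand for 8 of the 10 genes, in 9 windows, and not for Hes1 and Hey1. TGGGAA, read on both strands, occurred in 2 members, Hes5 and Lfng, with 2 matches in each, and in 25.6% of all 32851 windows. The longer GTGGGAA, which contains the core, was also found in Hes5 (2 matches) and Lfng (1 match), and in 6.38% of all windows. The parts before the start are shown for those genes and, for contrast, for Jag1, which held no match, with the core on either strand in capitals.
Hes5, chr4:154960673-154960922, plus strand: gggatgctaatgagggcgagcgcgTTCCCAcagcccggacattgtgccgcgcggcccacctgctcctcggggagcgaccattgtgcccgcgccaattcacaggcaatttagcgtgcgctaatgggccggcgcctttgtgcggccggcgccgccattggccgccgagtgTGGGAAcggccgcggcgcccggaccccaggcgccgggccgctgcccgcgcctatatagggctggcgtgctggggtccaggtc
Lfng, chr5:140607091-140607340, plus strand: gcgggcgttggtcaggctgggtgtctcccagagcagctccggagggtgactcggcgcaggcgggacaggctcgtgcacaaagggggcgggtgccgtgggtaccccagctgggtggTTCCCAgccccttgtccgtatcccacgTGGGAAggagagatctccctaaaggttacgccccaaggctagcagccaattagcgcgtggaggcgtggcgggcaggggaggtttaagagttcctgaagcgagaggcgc
Jag1, chr2:137116521-137116770, minus strand: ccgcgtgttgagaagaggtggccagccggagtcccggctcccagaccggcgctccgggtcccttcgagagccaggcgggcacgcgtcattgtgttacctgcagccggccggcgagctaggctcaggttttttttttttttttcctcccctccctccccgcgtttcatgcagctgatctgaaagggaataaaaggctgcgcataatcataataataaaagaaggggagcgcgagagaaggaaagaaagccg
In Hes5 the matches began at positions -226 and -82 from the start, the first on the reverse strand and the second on the forward strand. In Lfng they began at -135 and -108, in the same order of strands. Other motifs were common in windows of this length. CACNAG, the N-box bound by Hes proteins, was found in 5 of the 9 windows and in 42.5% of all, and CANNTG, the E-box bound by proneural factors, in 6 of 9 and in 72.3% of all. The 9 windows held between 11 and 41 CG dinucleotides, beside a median of 7 over all windows, with the most in Hes5 and Notch2. A match is a string of letters, and binding was not measured in these libraries.

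Levels of different genes were compared per length, as CPM divided by the exon length in kilobases (RPKM), in the 7 controls. The effectors led the order. Hes5 had 91.6 ± 20.7 RPKM (SD, n = 7) and Hes1 53.8 ± 18.8 RPKM, followed by Hey1 at 10.2, Dll3 at 9.46, Dll1 at 6.31, Lfng at 4.33 and Notch2 at 4.03 RPKM. Notch1 and Jag1 each had 1.43 RPKM, and Notch3 was last at 0.287 RPKM. Between neighbours in this order, the control ranges were apart only from Hes1 to Hey1, from Notch2 to Notch1 and from Jag1 to Notch3. All other neighbours overlapped. Hes5 was above Hes1 in each of the 7 controls, although their ranges overlapped.

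**Figure D3:**
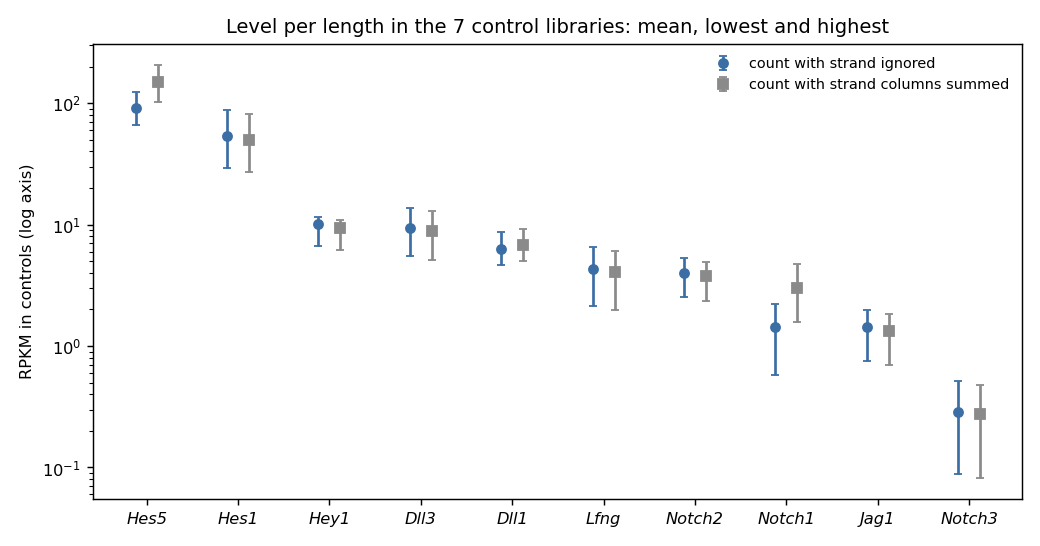
RPKM (vertical axis, log scale) of the 10 Notch pathway genes in the 7 control libraries, as the mean with bars from the lowest to the highest library, for the count that ignores strand (blue) and for the added strand-specific counts (grey). Hes5 and Hes1 stand above the other genes, and the added counts raise Hes5 from 91.6 to 150 RPKM and Notch1 from 1.43 to 2.99 RPKM.

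With the added strand-specific counts Hes5 rose to 150 RPKM and its control range no longer met that of Hes1. Those counts include reads that may belong to its antisense partner. Notch1 rose to 2.99 RPKM and its range then met that of Notch2. The gap between Notch2 and Notch1 therefore depended on the count used.

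A list of 70 genes that carry, modify or read the Notch signal, the 10 included, was then examined by role. Of these, 60 were tested and 0 differed in either direction by edgeR's quasi-likelihood test at an adjusted p under 0.05, or by limma-voom. DESeq2 called 1, Dner, an atypical Notch ligand of neurons (adjusted p 0.0387). At an unadjusted p under 0.05, 8 of the 60 passed, 6 higher (Notch1, Jag1, Dner, Neurl1a, Kat2b and Hes5) and 2 lower, among them Neurog2. That is 13.3%, beside 16.4% of all genes tested. The median log2 fold change was -0.01, beside 0.01 over all genes, and ran from -0.13 to 0.09 with a library left out.

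**Figure D4:**
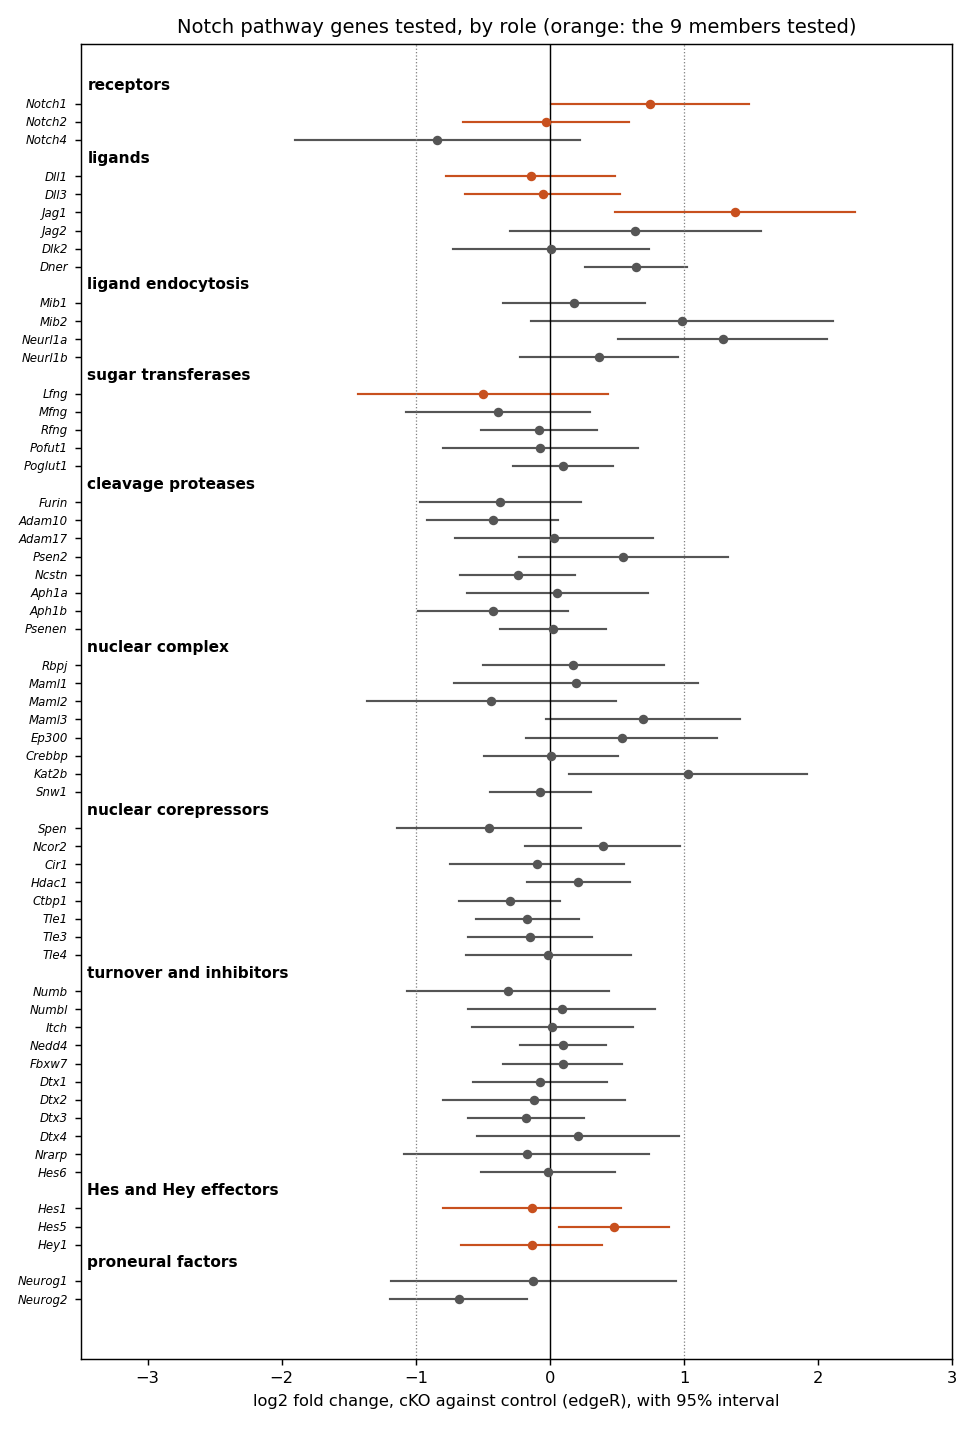
Log2 fold change (horizontal axis) with its 95% interval for 58 of the 60 Notch pathway genes tested, grouped by role, with the 9 tested genes of the shorter list in orange and dotted lines at a 2-fold change in either direction. The intervals of most genes cross 0, and Jag1 and Neurl1a have the largest fold changes.

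Of the 8 ligands 6 were tested, with a median log2 fold change of 0.32. Dner, named as the ligand with the highest CPM, measured 250.7, 163.0 and 194.2 CPM in cKO replicates 1, 2 and 3 and from 101.8 to 180.3 CPM in controls, a log2 fold change of 0.64 (SE 0.18) with an adjusted p of 0.0656 by edgeR's quasi-likelihood test. Dll4, the Delta ligand of vascular endothelium, had too few reads for the test, with 6.67, 5.46 and 3.78 CPM in cKO and 0 to 1.73 CPM in the controls. All cKO libraries were above all controls. Dll4 was singled out after its values were seen, with 20, 14 and 9 reads in cKO and 0 to 4 reads in controls. It passed the threshold where low counts were not removed. That call rests on the values for which it was picked and adds no support. The endothelial markers given above for Jag1 were above all controls in cKO replicate 2 alone, and their part in the Dll4 reads was not tested. In the same way as Dner, the gene with the highest CPM is named for each of the other roles.

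The 4 enzymes that ubiquitinate ligands for endocytosis, a step needed for signalling, had a median log2 fold change of 0.68, which was 0.40 without cKO replicate 1. Mib2 was at 0.99 (SE 0.53), from 50.7, 2.73 and 9.67 CPM in cKO replicates 1, 2 and 3 and a control mean of 11.3 CPM, and at -0.88 without cKO replicate 1. Mib1, the main such ligase, had a cKO mean of 97.3 ± 39.7 CPM (SD, n = 3), a control mean of 86.5 ± 22.7 CPM (SD, n = 7) and a log2 fold change of 0.18 (SE 0.25), or -0.21 without cKO replicate 2. Neurl1a, named after its values were seen, was the single gene of the 60 whose groups did not overlap, where 6.01% of all genes tested had such groups. It measured 10.00, 10.9 and 7.14 CPM in cKO and from 2.48 to 6.13 CPM in controls, a log2 fold change of 1.29 (SE 0.37) with an adjusted p of 0.0675 by edgeR's quasi-likelihood test.

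Other roles lay closer to 0. The 5 sugar transferases tested had a median log2 fold change of -0.08, and -0.30 without cKO replicate 2. Rfng (Radical fringe) was at -0.08, with -0.46 without cKO replicate 1 and 0.13 without cKO replicate 2. The 9 cleavage proteases tested had a median of -0.24, from -0.45 to -0.11 with a library left out. Ncstn, which encodes the nicastrin subunit of the gamma-secretase complex, was at -0.24 (-0.46 without cKO replicate 3).

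In the nucleus, the 8 genes of the RBPJ activation complex had a median of 0.19 (-0.08 to 0.39 with a library left out), with the coactivator Snw1 at -0.07 (0.09 without cKO replicate 2). Rbpj itself was at 0.17 (SE 0.32), with -0.42 after leaving out cKO replicate 2 and 0.47 after leaving out cKO replicate 1. Kat2b, an acetyltransferase coactivator, was at 1.03 (SE 0.42) with an adjusted p of 0.221 by edgeR's quasi-likelihood test. The 8 corepressors had a median of -0.12 (-0.15 to -0.02 with a library left out), with Ctbp1 at -0.30 (-0.54 without cKO replicate 1 and -0.15 without cKO replicate 2). The 11 genes of receptor turnover and inhibition had a median of -0.02 (-0.16 to 0.12 with a library left out), with the ubiquitin ligase Nedd4 at 0.10 (-0.15 without cKO replicate 2).

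The proneural genes are repressed by Hes proteins and switch on Delta ligands. Neurog2, a driver of projection neuron formation, measured 136.7, 150.1 and 184.9 CPM in cKO and from 121.5 to 376.7 CPM in controls, a log2 fold change of -0.68 (SE 0.24) with an adjusted p of 0.155 by edgeR's quasi-likelihood test. Neurog1 was at -0.12 (SE 0.50), from -0.65 to 0.23 with a library left out. Of the 8 Hes and Hey effectors, the 3 already described were tested. The other 5 had too few reads, with Hes2 and Hes3 at 0 in every library.

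Since Hes1 and Hes5 mark radial glia, each gene was also set against markers of those cells in the same library. The value was the log2 ratio of its reads, with 1 added, to the summed reads of the 12 radial glial markers. Fabp7 (mean 978 CPM in controls) and Vim (387 CPM) led that sum, and the ratio is not a level per cell. This ratio does not depend on how libraries are scaled. The cKO mean of Jag1 was -7.06 ± 0.70 (SD, n = 3) and its control mean -8.19 ± 0.51 (SD, n = 7), which differ by 1.14. Hes5 lay at -3.83 ± 0.08 and -4.29 ± 0.29, a difference of 0.46. For these 2 genes every cKO library was above every control, though for Hes5 narrowly, since the lowest cKO library lay at -3.90 and the highest control at -3.91. The share of all genes that lie apart on this scale was not computed, so 2 of 10 has no background to be read against. Both genes had a p of 0.0167 in the two-sided exact permutation test. That is the smallest p that 3 against 7 libraries can give, and it became 0.0833 after adjustment over the 10 genes. The separation depended on the denominator and the count. Against the geometric mean of the markers the groups overlapped for both genes, with Jag1 differing by 0.95 and Hes5 by 0.27 (two-sided exact permutation p = 0.05 and 0.15, adjusted p 0.333 for each). With the added strand-specific counts they overlapped for Hes5, which differed by 0.45 (exact permutation p = 0.1, adjusted p 0.5). Without cKO replicate 2 the Jag1 difference was 0.73.

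**Figure D5:**
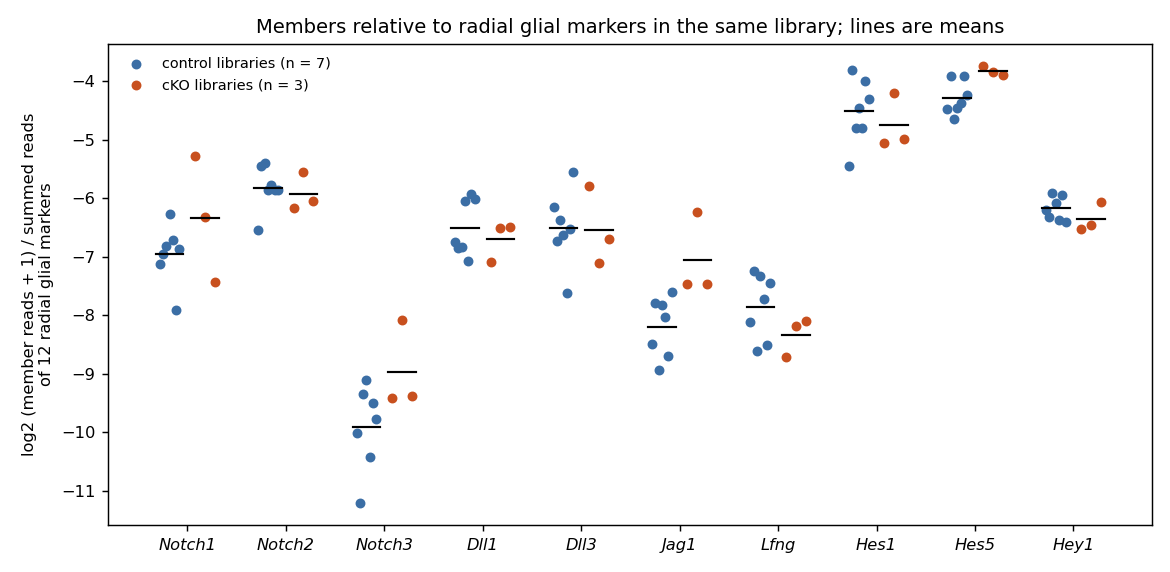
Log2 ratio of the reads of each Notch pathway gene, with 1 added, to the summed reads of 12 radial glial markers in the same library (vertical axis), for 7 control (blue) and 3 cKO (orange) libraries, with black lines at the means. The groups lie apart for Jag1 and, narrowly, for Hes5 on this denominator, and overlap for the other 8 genes. The share of all genes that lie apart on this scale was not computed.

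The other 8 genes overlapped between groups on this scale. Notch3 differed by 0.95 (exact permutation p = 0.117) and Notch1 by 0.61 (exact permutation p = 0.283), while Notch2, Dll1, Dll3, Hes1, Hey1 and Lfng differed by -0.48 to -0.03. Without cKO replicate 1 the Notch1 difference was 0.076, and without cKO replicate 3 it was 1.15. Without cKO replicate 2 the Notch3 difference was 0.51. The 3 cKO libraries agreed closely for Hes5, from -3.90 to -3.74, and spread widely for Notch1, from -7.43 to -5.27.

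Ratios between members of 1 role were compared in 6 pairs. For Hes5 to Hes1 the cKO mean of the log2 ratio was 0.92 ± 0.50 (SD, n = 3) and the control mean 0.23 ± 0.37 (SD, n = 7), which differ by 0.69 (two-sided exact permutation p = 0.05, 0.15 adjusted over the pairs). Jag1 to Dll1 lay at -0.36 ± 0.63 and -1.69 ± 0.64, a difference of 1.34 with the same p and adjusted p by that exact test. In both pairs all 3 cKO libraries were above the control mean, but the groups overlapped. The other pairs did not differ beyond their spread. Hey1 to Hes1 differed by 0.06, Dll3 to Dll1 by 0.17, Notch2 to Notch1 by -0.71 (-0.05 without cKO replicate 1) and Notch3 to Notch1 by 0.34, with exact permutation p values from 0.283 to 0.917.

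The genes whose profile over the 10 libraries was most like those of Notch1, Hes1 and Hes5 were found among all 11551 genes by the root mean square difference in centred log2 CPM. For Notch1 they were Man2a2 (0.23), Cdr1 (0.27) and N4bp1 (0.30), where the median gene differed by 0.79. For Hes1 they were Cav2 (0.21), Ccnc (0.24) and Adam17 (0.26), with a median gene at 0.65. For Hes5 they were Gng5 (0.12), Ibtk (0.13) and 1110012L19Rik (0.18), with a median gene at 0.53. No other Notch pathway gene but the protease gene Adam17 stood among these 9.

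The share of reads outside genes fell into a low range of 5.47% to 8.64% (1 cKO and 4 control libraries) and a high range of 12.8% to 16.7% (2 cKO and 3 controls). Within the low and the high range, the log2 CPM difference between cKO and control was 0.84 and 1.25 for Jag1, and 0.41 and 0.56 for Hes5. For Notch1 it was -0.04 and 0.66. The only cKO library in the low range was replicate 3, which had the lowest Notch1 level of the 3. Hey1 differed by 0.33 in the low and -0.51 in the high range. The part of this share in the values was not tested.

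Markers of other cells and states also moved with genotype. Cajal-Retzius markers, led by Reln, summed to 614.2 to 840.6 CPM in cKO and 26.3 to 221.4 CPM in controls, with 7 of 7 tested genes higher by edgeR's quasi-likelihood test. Cycling-cell markers, led by Pcna, summed to 751.0 to 1659 CPM in cKO and 602.2 to 1032 CPM in controls, with 4 of 10 higher. Dissociation-response genes, led by Fos, summed to 993.3 to 2278 CPM in cKO and 560.0 to 1052 CPM in controls, with 3 of 7 higher. Their part in the values of the Notch pathway genes was not tested.

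Few genes of the remaining lists passed the test. Intermediate progenitor markers, led by Elavl4, had 0 of 8 called, and summed to 1006 to 1180 CPM in cKO and 821.0 to 1257 CPM in controls. Interneuron markers, led by Sst, had 1 of 7 higher, at 44.8 to 150.5 CPM in cKO and 17.2 to 113.7 CPM in controls. Microglial markers, led by Tyrobp, summed to 3.51 to 44.6 CPM in cKO and 0 to 6.75 CPM in controls. Choroid plexus and hem markers, led by Rspo3, and oligodendrocyte precursor markers, led by Cspg5, had 0 of 2 tested genes called each.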

How the data were processed

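Each library was made by Smart-Seq2 from 400 cells of 1 embryo, without molecular identifiers, so counting error does not cover amplification. Per the paper's methods and the submitters' processing notes, the authors merged technical replicates, aligned reads to GRCm38 with STAR 2.5.0c, kept unique alignments and deposited raw counts per GENCODE M16 gene in 3 columns (strand ignored, sense and antisense). Reads on more than 1 gene are left out of the strand-ignored counts, which were used here because 50.3% to 50.5% of strand-assigned reads were sense. Rows that name no gene stayed out of library sizes and tests. Those for reads outside genes held 5.47% to 16.7% of the uniquely aligned reads.

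Symbols, positions and exon lengths came from GENCODE M21: of 53379 genes, 50604 matched with version, 2670 without and 105 not. Genotypes were compared with edgeR 4.0.16 in R 4.3.3 (TMM, estimateDisp, glmQLFit, glmQLFTest, genotype alone, mean of at least 10 reads, Benjamini-Hochberg threshold 0.05). Levels are CPM from TMM-scaled counts or, per length, RPKM. Ratios were compared with two-sided exact permutation tests over libraries, adjusted over the 10 genes or 6 pairs. DESeq2 1.42.0, limma-voom (limma 3.58.1), other scalings, filters, counts, covariates and each library left out were alternatives, and the split by the share of reads outside genes and the radial glial ratio on the summed strand columns were chosen after seeing the data. Among 24 pairs of libraries of 1 genotype, the chi-square per degree of freedom was 4.69 to 20.9, so none was a duplicate.

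The genes, the wider list, the marker lists and the tests were chosen with earlier results of these data known. Named are the 10 genes, any gene of the wider list that passed, the gene with the highest mean CPM of each role and marker list, the 3 genes most like Notch1, Hes1 and Hes5, and Cdkn1c. Genes with an unadjusted p under 0.05, Dll4, Mib2, Neurl1a, Rbpj and proneural genes were named after their values were seen. Promoter windows are from RefSeq on GRCm38.p6. Protein features were not analysed here, and single values of some genes of the wider list are not reported here.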

Additional observations from a re-analysis of the deposited data

Results flagged for a closer look

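In the 7 controls, 47 sets of values (genes, ratios and marker sums) were screened for a library far from the other 6, and 5 were found. Chance gives about 1 in 20. The Hey1 level in control replicate 7 was 21.6 CPM, where the other controls had 31.2 to 37.6 CPM. The ratio of Notch2 to radial glial markers in control replicate 1 was -6.55 on the log2 scale, against -5.86 to -5.40 in the others. In control replicate 5, cycling-cell markers summed to 1032 CPM (602.2 to 705.1 CPM in the others) and interneuron markers to 113.7 CPM (17.2 to 43.5 CPM). Oligodendrocyte precursor markers summed to 132.3 CPM in control replicate 1 (36.9 to 73.3 CPM).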

How the results depend on the processing

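The count of all genes called was 364, and 961 with no filter on low counts, 213 with the replicate block and 271 to 424 with a library left out. Of the 10 Notch pathway genes 0 were called, except 1 (Jag1) with no filter and 1 (Jag1) without cKO replicate 1, a range of 0 to 1 over libraries left out. Of the 60 tested genes of the wider list 0 were called, and 1 with DESeq2 (Dner), where 4.42% of all genes were called. With no filter 4 of 68 were called (Dner, Dll4, Jag1 and Neurog2), beside 961 of 26537 genes in all. With filterByExpr it was 1 of 63 (Dll4), beside 400 of 12299. Dll4 met filterByExpr through the cKO libraries alone, where it was high, so this call adds no support. With the share of reads outside genes as covariate 1 of 60 was called (Dner), beside 385 of 11551. With a library left out 0 to 2 were called. These were Dner and Neurog2 without control replicate 1, Dner without cKO replicate 2, and Jag1 without cKO replicate 1.

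Replicate numbers did not pair the libraries: same-numbered cKO and control libraries had correlations of 0.04, -0.10 and -0.21 across genes, and each cKO library was most like a control of another number. In that block the log2 fold change of Dll1 was 0.15 and 0 of the 9 genes were called.

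Of 180 recomputed fold changes of the 9 genes, 161 kept direction and side of the threshold, 2 passed it and 17 changed sign. Sign changes were limited to Notch2, Dll1, Dll3, Hes1 and Hey1, whose log2 fold changes lay between -0.14 and -0.03. Notch2 reached 0.0033 with upper-quartile scaling, and Dll3 0.081 with reads thinned to the shallowest library and 0.0092 with the covariate. With a library left out, the log2 fold change ran from -0.49 to 0.26 for Notch2, -0.44 to 0.19 for Dll1, -0.26 to 0.054 for Dll3, -0.73 to 0.17 for Hes1 and -0.31 to 0.12 for Hey1. Ratios to radial glial markers ran from -0.28 to 0.023 for Notch2 and -0.40 to 0.26 for Dll3, and pair ratios from -0.20 to 0.38 for Hey1 to Hes1, -0.40 to 0.55 for Dll3 to Dll1, -0.10 to 1.10 for Notch3 to Notch1 and -1.19 to -0.05 for Notch2 to Notch1. The adjusted exact p of the radial glial ratio ran from 0.0833 to 0.333 for Jag1 and 0.0833 to 0.5 for Hes5, whose groups overlapped against the geometric mean of the markers (differences of 0.95 and 0.27) and, for Hes5, with the strand columns summed (0.45). The cause of these changes was not tested. With 3 cKO libraries of 400 cells, the 95% intervals of Notch1, Jag1 and Lfng reached past a 2-fold change, and Notch3 had too few reads to be tested.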

Other observations

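The 5 Hes and Hey genes and the 5 other genes of the wider list with too few reads for the test were all at low counts. With no filter, the log2 fold change was 1.25 for Hey2 (adjusted p 0.260), 1.30 for Hes7 (adjusted p 0.582) and 2.82 for Heyl (adjusted p 0.417) by edgeR's quasi-likelihood test, with means of 8.20, 3.50 and 1 reads per library. Eogt, a sugar transferase of the receptors, had a mean of 6.60 reads, and Aph1c, a subunit of the gamma-secretase complex, 6.20 reads.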
